A study of Mus musculus with 4 samples.

Results

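The Nanog and Dppa3 gene cluster is a stretch of mouse chromosome 6 that holds Apobec1, Gdf3, Dppa3, Nanog and Slc2a3. Pcbp1 peaks were assigned to it when their summit lay within 50 kb of the body of any of these 5 genes, which gave 1 of 3494 peaks in primed epiblast-like cells (EpiLC) and 15 of 12132 peaks in naive embryonic stem cells (Naive). The 5 windows of 50 kb run into each other and make a single locus of 324.6 kb. Its genes are 5 of 21887 protein-coding genes of the mouse build GRCm38 (mm10). In order along the chromosome, RefSeq places Apobec1 at chr6:122577792-122603024, Gdf3 at chr6:122605403-122610087, Dppa3 at chr6:122626424-122630271, Nanog at chr6:122707489-122714633 and Slc2a3 at chr6:122727809-122802363. Below, the annotated start and end of a gene are its lower and higher coordinate. For Nanog, on the plus strand, the start is the promoter side, and for Apobec1, on the minus strand, the end is.

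Pcbp1 is a protein that binds stretches of C in RNA and DNA, and its binding to chromatin was measured here by ChIP-seq, the sequencing of DNA precipitated with an antibody against it. Both conditions used the mouse embryonic stem cell line E14 Tg2a. EpiLC were made from the naive cells in 48 hours with bFGF, Activin A and KOSR on fibronectin. Naive cells had been kept for 3 passages in serum-free medium with LIF, the MEK inhibitor PD0325901 and the GSK3β inhibitor CHIR99021. Each condition had 1 Pcbp1 library and 1 input library. The inputs were not analysed here, and the values below have no replicate check and no p-value. The cell states rest on the labels, since peak lists hold no expression of marker genes.

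Nanog encodes a homeobox transcription factor that holds embryonic stem cells in the self-renewing naive state and is turned down as they leave it. Dppa3, also called Stella or PGC7, is expressed in oocytes, early embryos, primordial germ cells and naive stem cells and shields DNA methylation marks in the early embryo. Gdf3 encodes a secreted ligand of the TGF-beta family, Apobec1 a cytidine deaminase that edits apolipoprotein B mRNA, and Slc2a3 the glucose transporter GLUT3. In mouse stem cells Nanog is also controlled by enhancers some distance from its promoter.

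The Nanog promoter is shown because most of it lay under a Naive peak, and the Apobec1 promoter because it lay under none. Both come from RefSeq for GRCm38.p6, which matched 2 of the 5 genes. Each runs from 250 bases before to 50 bases after a start given by RefSeq. This RefSeq start is the annotated start for Nanog and chr6:122602444 for Apobec1, inside the gene body near its annotated end. Capitals mark CCCTCCC, the Sox letters CATTGT, the Oct letters ATGCAAA and TATAAA, each on either strand, and the base that joins the Sox and Oct letters.
Nanog promoter, chr6:122707239-122707538, plus strand: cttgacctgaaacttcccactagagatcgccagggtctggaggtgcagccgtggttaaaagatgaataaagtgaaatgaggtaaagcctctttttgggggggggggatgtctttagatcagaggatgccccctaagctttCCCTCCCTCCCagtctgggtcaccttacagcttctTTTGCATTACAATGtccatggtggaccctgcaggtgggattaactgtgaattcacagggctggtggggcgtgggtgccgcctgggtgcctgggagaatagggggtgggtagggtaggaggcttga
Apobec1 promoter, chr6:122602395-122602694, minus strand: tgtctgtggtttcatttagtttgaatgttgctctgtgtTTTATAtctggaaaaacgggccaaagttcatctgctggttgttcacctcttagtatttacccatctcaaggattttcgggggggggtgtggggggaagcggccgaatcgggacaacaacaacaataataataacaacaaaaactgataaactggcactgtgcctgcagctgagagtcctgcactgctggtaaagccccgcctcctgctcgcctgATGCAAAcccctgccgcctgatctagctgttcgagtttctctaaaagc

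The first capital stretch of the Nanog promoter holds CCCTCCC at 2 places that share 3 letters, and the second holds the Sox and Oct letters joined by 1 base, CATTGTNATGCAAA on the minus strand. CCCTCCC was present in 22.0% of the 32851 mouse promoter entries, and 5.66% had it at 2 or more places. The joined Sox and Oct letters were present in 2 entries, 0.00609% of all, and both are entries of Nanog whose windows overlap. Only this exact spelling was searched, so other forms of the joined letters, and those outside promoter entries, were not counted. The spelling was chosen with earlier results known, so nothing is read from how rare it was. The Apobec1 promoter held the Oct letters alone, which 4.63% of entries had, 2 to 8 bases after its RefSeq start. It held TATAAA, which 13.6% had, only as TTTATA on the strand shown, at -212 to -207 from that start. Runs of CCCC were too common to set promoters apart, at 86.4% of entries. Of the Nanog window, 288 of 300 bases lay under the Naive peak and 0 under an EpiLC peak, while 0 bases of the Apobec1 window lay under a peak of either list. The summit of the Nanog peak lay outside the window, 361 bp after the annotated start. A match describes letters in the reference and is not a measured binding site.

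The single EpiLC peak of the locus lay inside Apobec1 (chr6:122595913-122596294), 6919 bp from the annotated end of the gene. Its fold enrichment, the pileup of fragments at the summit over the peak caller's background, was 5.55 (95% counting interval 4.17 to 7.25) at a pileup of 52. A Naive peak lay under it (chr6:122595921-122596202), with a fold of 4.69 (3.08 to 6.89) at a pileup of 24 and its summit 38 bp away. The EpiLC fold was 1.18 times the Naive fold, with a counting interval of 0.732 to 2.05, so the difference was within counting error.

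Over the 1689 EpiLC peaks that overlapped a Naive peak, the median ratio of EpiLC to Naive fold was 0.670 (quartiles 0.523 and 0.867), and 92.8% had a ratio below that of the Apobec1 peak. No test was made of this, since each condition had 1 library.

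**Figure D1:**
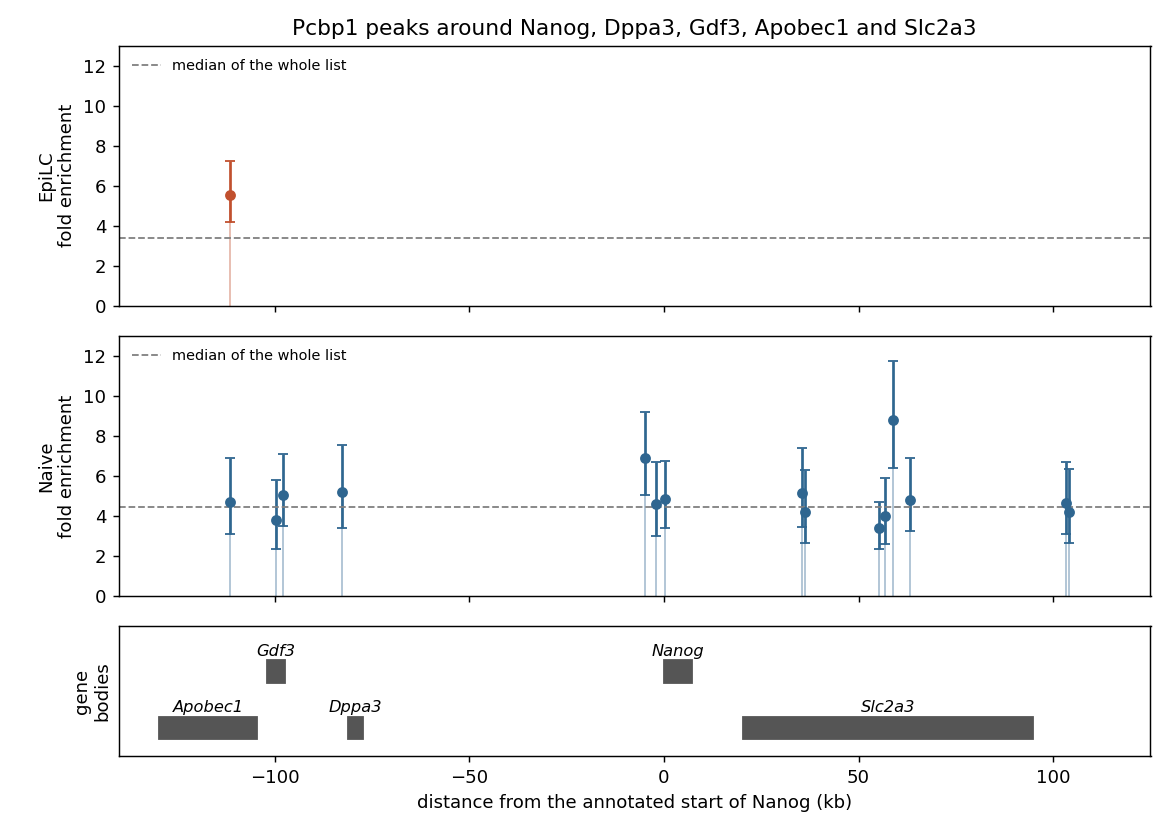
Fold enrichment of each Pcbp1 peak (points, with 95% counting intervals) by distance of its summit from the annotated start of Nanog in kb, with EpiLC above, Naive in the middle and the gene bodies at the bottom. The 1 EpiLC peak sits in Apobec1, and the 15 Naive peaks fall into 6 groups, with the highest folds upstream of Nanog and inside the Slc2a3 body.

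At Nanog, EpiLC had 0 peaks within 50 kb and Naive had 7, of which 3 lay in a group of 6.01 kb around the annotated start. The strongest of the 3 had its summit 4902 bp upstream of the start (chr6:122702193-122703216), with a fold of 6.90 (5.05 to 9.21) at a pileup of 44. It was 1024 bp wide, and 89.6% of Naive peaks had a lower fold. A narrower peak of 260 bp (chr6:122705255-122705514) had its summit 2108 bp upstream, at 4.58 (3.00 to 6.72). The peak over the start itself was 954 bp wide (chr6:122707251-122708204), at 4.84 (3.38 to 6.74) and a pileup of 33. The counting intervals of the 3 peaks overlap.

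Annotated pseudogenes of Nanog and Dppa3 lie elsewhere in the genome and could share reads with exons of these genes. At Nanog-ps1, Nanog-ps2 and Dppa3-ps, 0 peaks of either list lay within 1 kb. The genome held 1.27 EpiLC and 4.44 Naive peaks per Mb, so most windows this short hold none, and nothing is read from this. Whether reads were shared was not tested.

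Downstream of Nanog, EpiLC had 0 peaks and Naive had 8, of which 6 lay inside the annotated body of Slc2a3 and 2 beyond it. The strongest peak of the whole locus was among them (chr6:122766055-122766978), 58945 bp downstream of the Nanog start, with a fold of 8.79 (6.42 to 11.8) at a pileup of 43. Its interval lay above the folds of all other Naive peaks of the locus except the one 4902 bp upstream of Nanog, and 96.0% of Naive peaks had a lower fold. It stood in a group of 4 peaks over 8.17 kb, whose other folds were 3.39, 3.99 and 4.82. The peak of 4.82 (chr6:122770308-122770673; 3.26 to 6.89) lay 31763 bp from the annotated end of Slc2a3. The lowest of these (chr6:122762508-122762869) was at 3.39 (2.36 to 4.72) and sat on the highest local background of the locus, 2.26 times the lowest background of the list.

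The other peaks in Slc2a3 lay 15084 and 15921 bp from its annotated start, at 5.13 (3.44 to 7.38) and 4.17 (2.66 to 6.28). The first was 866 bp wide (chr6:122742217-122743082). The annotated body of Slc2a3 spans 74555 bp and is drawn from 1 curated and 5 predicted transcripts, so a peak inside it may be at the start of a shorter transcript, which was not tested. Beyond the body, toward Foxj2, a forkhead factor gene, a summit lay 8306 bp away (chr6:122810508-122810871), at 4.65 (3.12 to 6.69), and another 9182 bp away, at 4.19 (2.63 to 6.36).

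Upstream of Nanog, EpiLC had the Apobec1 peak alone, and Naive had 4 peaks beyond the group at the Nanog start. Gdf3 held 2 of these inside its body. The wider, of 1619 bp (chr6:122608387-122610005), had its summit 466 bp from the annotated end of the gene, at 5.06 (3.51 to 7.08). It was the widest peak of the locus. The other lay 2232 bp from that end, at 3.78 (2.35 to 5.80). Dppa3 held no summit in its body in either list. Its nearest peak (chr6:122624582-122624860) lay in Naive, 1694 bp before its annotated start, at 5.17 (3.42 to 7.54).

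Summits within 1 kb of an annotated gene end were found at 0 of the 5 genes in EpiLC and at 2 in Naive, Nanog and Gdf3. Over all protein-coding genes the shares were 5.61% in EpiLC and 19.3% in Naive. Within 50 kb, a summit lay near 3 of the 5 genes in EpiLC, all by the same Apobec1 peak, and near all 5 in Naive, beside 26.3% and 58.1% of protein-coding genes. The genes share peaks: Apobec1, Gdf3 and Dppa3 had the same 4 Naive peaks within 50 kb, and Nanog and Slc2a3 shared 7.

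Between the Dppa3 and Nanog groups lay a stretch of 77.9 kb with no summit of either list, the widest gap between neighbouring Naive summits of the locus. The median gap was 3480 bp. At Mfap5, Foxj2 and C3ar1, whose bodies reach into the locus, 0 summits of either list lay inside or within 1 kb. The totals of the locus depended little on the choice of 50 kb, with 1 EpiLC and 15 Naive peaks at 20 kb and 1 and 16 at 100 kb. Among Naive summits of the locus, the farthest from the bodies of the 5 genes lay 9.18 kb away, at a fold of 4.19. The next ones outside the locus lay 72.4 kb from these bodies on one side, at 4.80, and 105.9 kb on the other, at 5.93. The nearest EpiLC peak outside lay 235.4 kb away, at 3.29.

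Naive peaks were crowded at the locus, and their folds lay near those of the list. The density of EpiLC peaks was 3.08 per Mb at the locus against 1.27 per Mb in the genome, a ratio of 2.43 on 1 peak (95% Poisson interval 0.0614 to 13.5). The density of Naive peaks was 46.2 per Mb at the locus against 4.44 per Mb in the genome, a ratio of 10.4 (5.82 to 17.2). Both intervals treat peaks as independent. Naive peaks stood in groups, with 4 gaps between neighbouring summits within 2 kb, so the Naive interval is likely too narrow. Of 271569 overlapping windows as long as the locus, 26.0% held at least 1 EpiLC summit and 0.2% held at least 15 Naive summits. The windows with at least 15 fell into 39 separate regions, this one included. Since the Naive list is the longer one, it was also shortened by −log10 p to the 3494 peaks of the EpiLC list. The locus then held 4 Naive peaks, beside 1 EpiLC peak, and 1.23% of windows held at least 4 summits of the shortened list.

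The 15 Naive folds ran from 3.39 to 8.79 with a median of 4.69, beside a median of 4.43 over the list. Of the 15 peaks, 10 were above the list median and 2 above its upper quartile of 5.41. In width, 6 of 15 were above the upper quartile of the list, 511 bp. The median local background was 1.11 times the lowest of the list, the same as over the whole Naive list.

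**Figure D2:**
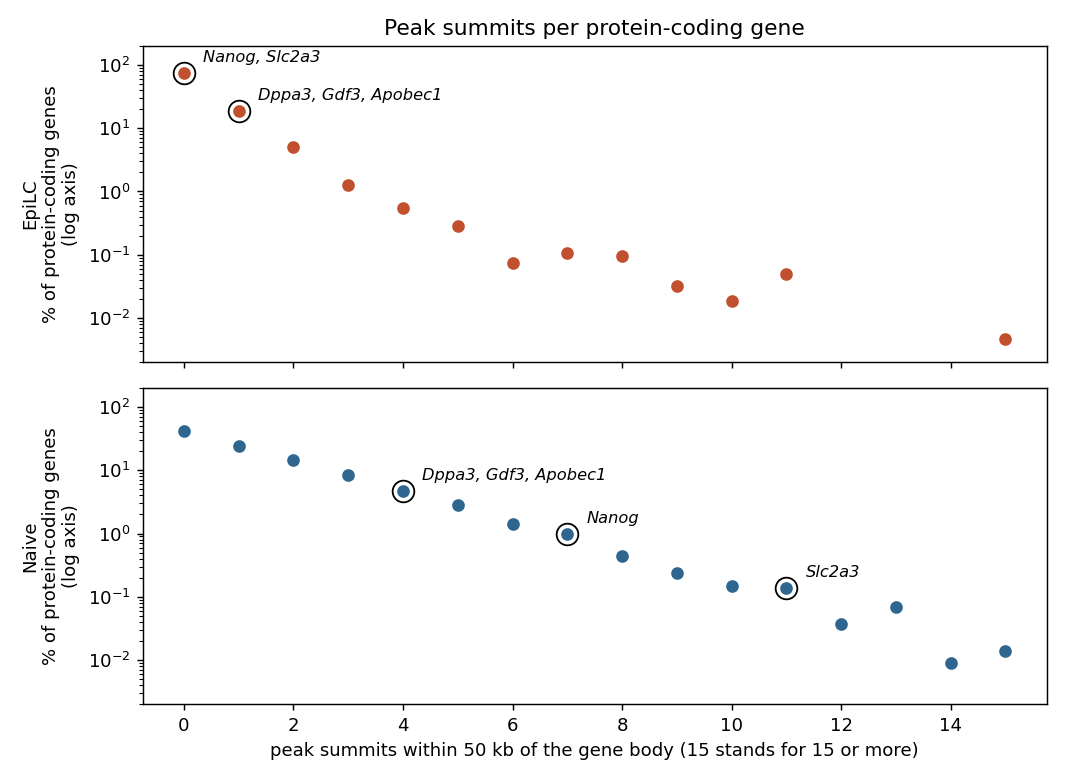
Percent of 21887 protein-coding genes (log axis) by the number of peak summits within 50 kb of the gene body, with EpiLC above and Naive below. Circles mark the counts of the 5 genes of the locus, which are 0 or 1 in EpiLC and 4, 7 or 11 in Naive.

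By gene, Slc2a3 had 0 EpiLC and 11 Naive summits within 50 kb, and 0.265% of protein-coding genes had at least as many in Naive. Nanog had 0 and 7, with 2.07% of genes at least as high in Naive. Apobec1, Gdf3 and Dppa3 each had 1 and 4, with 11.0% of genes at least as high. These counts by gene depended on the distance. Within 20 kb, Nanog had 0 EpiLC and 3 Naive summits (8.31% of genes at least as high in Naive), and within 100 kb 0 and 14 (0.384%). Dppa3 had 0 and 3 within 20 kb and 1 and 7 within 100 kb, and Gdf3 had 1 and 7 within 100 kb. Longer genes have wider windows, which bears on Slc2a3 most.

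Of the 15 Naive peaks, 1 overlapped an EpiLC peak (6.67%), beside 13.7% over the list. The 1 EpiLC peak overlapped a Naive peak, as 48.3% of EpiLC peaks did. This overlap was lost at a fold of at least 5, where the Naive peak in Apobec1 was left out, and when Naive peaks were cut to the 3494 of lowest p.

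Sequencing depth was not known here. The lowest background recovered from the peaks of a list, taken as its genome-wide background, was 7.43 in EpiLC against 4.004 in Naive. At that background an EpiLC peak needed a fold of 2.73 to reach the lowest −log10 p of its list, 5.16, and the needed fold did not exceed this at higher backgrounds. The Naive list itself needed 2.997 at its lowest background. At low background, a Naive-only peak was therefore bound to have a Naive fold above 2.73, and nothing is read from how many did. The Naive folds differ by peak. Their lower counting bounds were highest, at 5.05 and 6.42, for the peaks upstream of Nanog and inside Slc2a3 (folds of 6.90 and 8.79). This describes the Naive list alone and not the absence of EpiLC peaks.

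Where both lists had a peak, the EpiLC fold was the higher one in 14.4% of cases, the Apobec1 peak among them. Multiplied by the median ratio of shared peaks, 0.670, the 14 folds became 2.27 to 5.89. Those below 2.73 were the weaker Gdf3 peak and the Slc2a3 peaks of 3.39 and 3.99. The shared ratio was taken from peaks that passed in both lists, so it is a reference value and not an estimate for peaks missing from EpiLC. Whether Pcbp1 was bound below the EpiLC threshold at these sites was not tested.

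**Figure D3:**
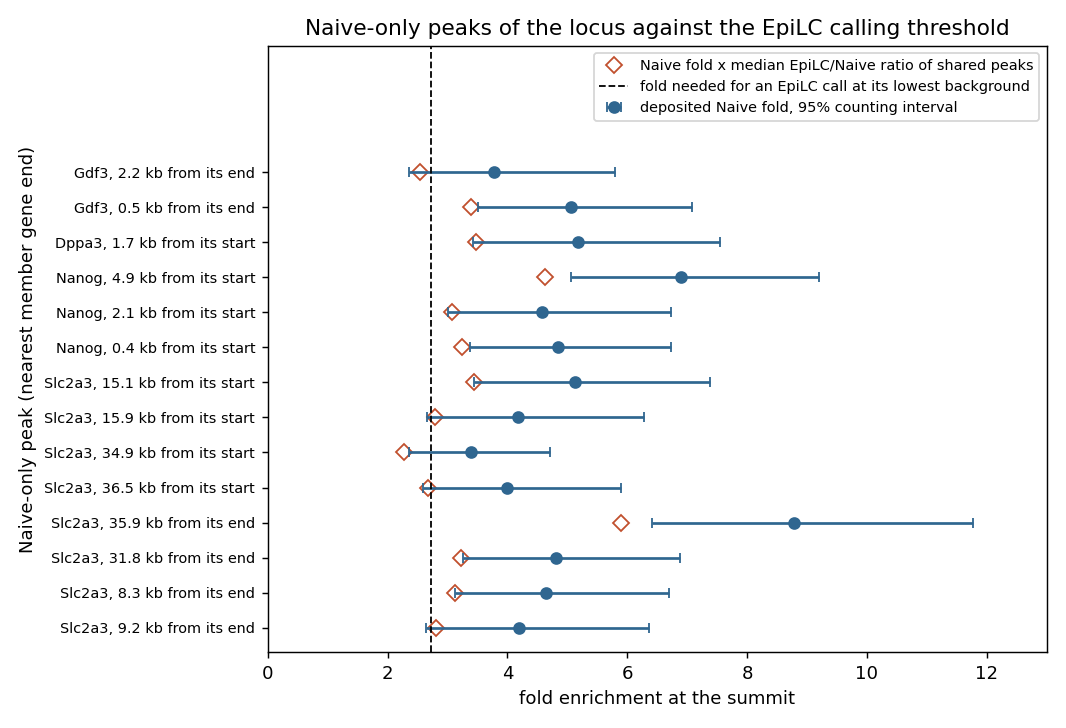
The 14 Naive-only peaks of the locus in order along the chromosome, with their Naive fold and 95% counting interval (filled points), the same fold times 0.670 (open diamonds) and the fold of 2.73 needed for an EpiLC call (dashed line). The highest Naive folds are those of the peaks 4902 bp from the Nanog start and 35929 bp from the Slc2a3 end. At low background, Naive-only peaks were bound to have a Naive fold above the line, so nothing is read from their distance to it.

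Other pluripotency genes were described by the same measures, with lists chosen with earlier results known. Within 50 kb of 17 naive network genes lay 3 EpiLC and 69 Naive peaks, and 2 of the 69 overlapped an EpiLC peak (2.90%, beside 13.7% of all Naive peaks). The median gene had 0 EpiLC and 3 Naive summits, beside 0 and 1 over all protein-coding genes, whose 95th percentiles were 2 and 5. Tbx3, a T-box factor, had 1 and 9, Esrrb, an orphan nuclear receptor, 0 and 8, and Tfcp2l1, a grainyhead-like factor, 0 and 7. At Zfp42, known as Rex1, the counts were 0 and 4. The lowest counts, 0 and 1, were those of Nr0b1, Stat3, Tcl1, Dppa2 and Dppa4. The counts of Nanog at this distance, 0 and 7, lay within the range of this list, and that of Slc2a3 in Naive, 11, lay above its highest, 9. The annotated body of Slc2a3, 74555 bp, widens its window, and 7 of its 11 Naive peaks are shared with Nanog.

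The core and primed lists held more EpiLC peaks than the locus or the naive list. Around 6 core genes lay 9 EpiLC and 21 Naive peaks, and 6 of the 21 overlapped an EpiLC peak (28.6%, beside 13.7% of all Naive peaks). Pou5f1, which encodes Oct4, had 1 EpiLC and 7 Naive summits, Sox2 had 3 and 6, Sall4 1 and 5 and L1td1 1 and 2. Utf1, with 2 and 1, and Lin28a, with 1 and 0, had more EpiLC than Naive summits. Around 8 primed genes lay 16 EpiLC and 11 Naive peaks, and 1 of the 11 overlapped an EpiLC peak (9.09%). Fgf5, a growth factor of the primed epiblast, had 5 and 0, while Otx2, a homeobox factor, had 1 and 5. Gene-end peaks in EpiLC and Naive were found at 0 and 2 of the 5 locus genes, 1 and 10 of the 17 naive genes, 4 and 5 of the 6 core genes and 4 and 0 of the 8 primed genes, beside 5.61% and 19.3% of all protein-coding genes.

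**Figure D4:**
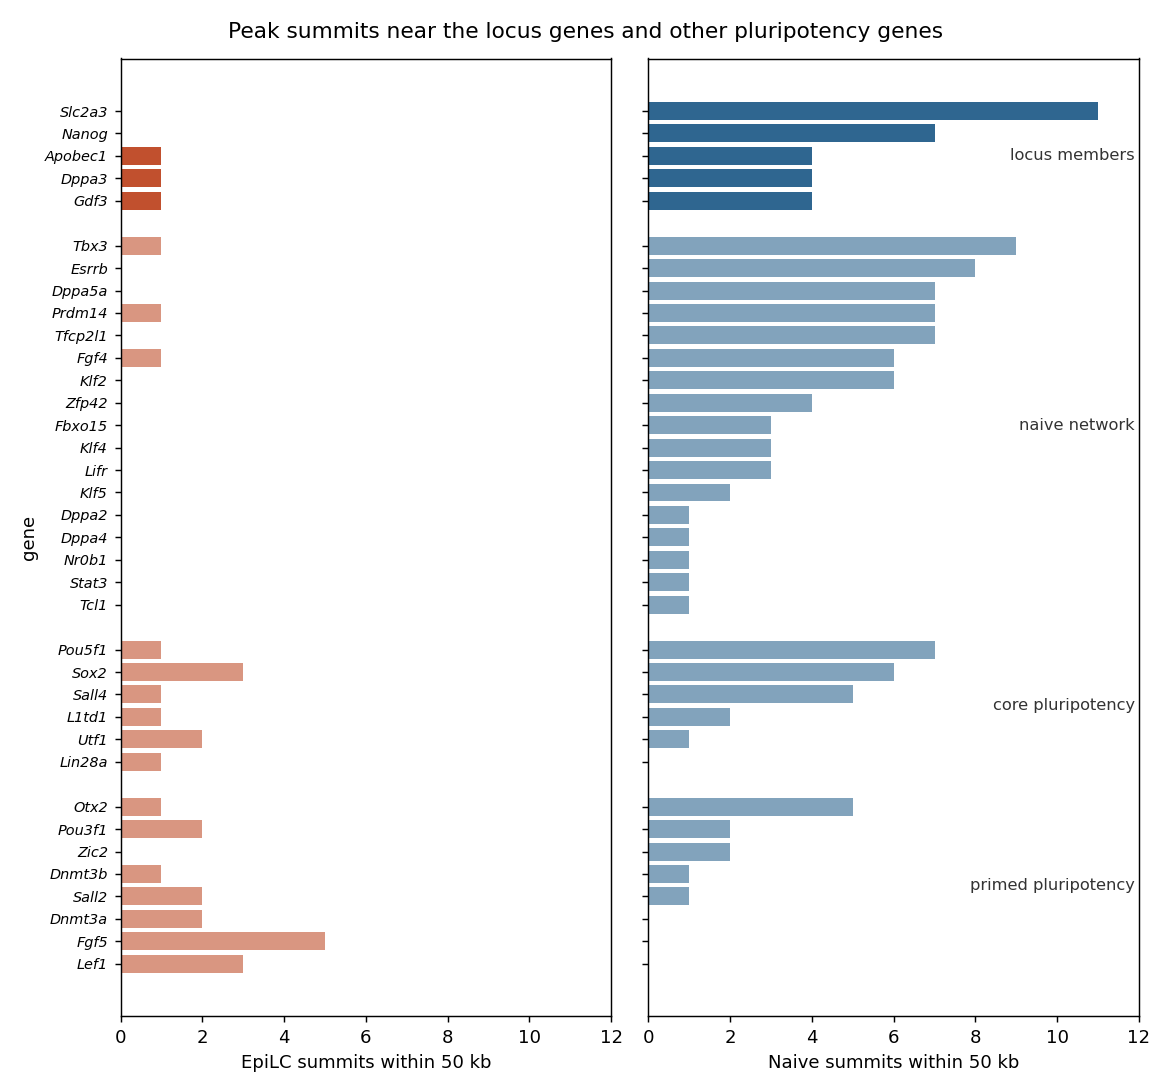
Number of EpiLC (left) and Naive (right) peak summits within 50 kb of each gene body, for the 5 locus genes and the naive, core and primed lists. Slc2a3, which has the longest body of the 5 locus genes, has the most Naive summits, at 11, and Fgf5 the most EpiLC summits, at 5.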

How the data were processed

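Each condition has 1 peak list, deposited by the authors from 1 ChIP library and without pooling. Per the submitters' processing notes, fastp, Bowtie2, Picard and MACS2 were used with the build GRCm38 (mm10), with no versions or roles. The labels' protocols place chromatin fragments around 500 bp. For the caller's control and for read totals, nothing is stated in the sources used here. In the deposited lists, column values are a ratio, the fold of the summit over background, and for each peak a −log10 p-value with its −log10 q-value, as the authors' caller wrote them. The lowest −log10 q was 2.02 in either list. A further deposited column places the summit within the peak.

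Pileups were recovered by solving 2 equations, (pileup + 1) / (background + 1) for the fold and a Poisson upper tail for the p-value. A single whole number matched the deposited −log10 p to 0.001 for 100% of peaks in both lists. Poisson intervals of 95% take the background as known and cover counting error only. The recovery and the overlap were tested on simulated data. Overlap means at least 1 bp, and the highest fold was taken where more than 1 peak overlapped. Peaks were joined into groups at summit gaps of up to 12.5 kb. Windows of the locus length started every 10 kb, up to the last annotated gene or peak of each placed chromosome. The gene table gives neither strand nor transcript ends.

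Every peak of the locus is reported. Named in full by rule were peaks at gene ends, the 10 highest folds and any EpiLC or shared peak. The genes, lists, motifs and alternatives were chosen with earlier results of these data known, and the fold needed for an EpiLC call and the shared ratio were added after the data were seen. The tools were Python 3.11.15 with scipy 1.17.1, pandas 2.3.3, numpy 2.4.6 and matplotlib 3.10.9.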

Additional observations from a re-analysis of the deposited data

How the results depend on the processing

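Of 63 recomputed values, 51 stayed within their range (counts within 1.5 times, density ratios within their interval) and 12 did not. Some of the 51 could not move. Shortening the Naive list leaves the number of EpiLC peaks unchanged, and an EpiLC gene-end count of 0 cannot fall under a stricter rule. The 51 is therefore not a measure of stability. Of these 12, 5 are counts by gene at 20 or 100 kb, added after the data were seen: Naive summits near Nanog numbered 3 and 14, those near Dppa3 and Gdf3 7 each at 100 kb, and EpiLC summits near Dppa3 0 at 20 kb. At a fold of at least 5, the locus held 5 Naive peaks, 0 EpiLC peaks overlapped a Naive peak and 0 Naive peaks an EpiLC peak, since the Naive peak in Apobec1 was at 4.69, and 1 gene, Gdf3, had a Naive gene-end peak. With the Naive list shortened to 3494 peaks by −log10 p, 4 Naive peaks were left, 0 of them overlapping an EpiLC peak, and 0 EpiLC peaks overlapped a Naive one. The 4 were those upstream of Nanog at 6.90, at the Nanog start, at the Gdf3 end and in Slc2a3 at 8.79. The Naive density ratio was then 9.68 (2.64 to 24.8), an alternative added after the data were seen. The ratio was 10.3 against chromosome 6 and 7.54 against all windows within 50 kb of protein-coding genes. No paired analysis was possible because each condition had 1 library and no result comes from a test. With 1 library per condition, counting error is the only error known here.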
